A study of Mus musculus with 2 samples.

Results

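The claudins and the other genes of the tight junction were measured in whole ureters of mouse embryos at E18.5. The genes were chosen by name. They comprised every gene on the array whose symbol begins with Cldn and a digit, the Tjp and the Marveld genes, and 13 further genes: Ocln, F11r, Jam2, Jam3, Cgn, Cgnl1, Pard3, Pard6b, Prkci, Crb3, Mpp5, Inadl and Esam. The choice gave 51 of the 29923 gene names on the array, 32 claudins and 19 other genes, which were covered by 69 of 39429 probes. All 51 matched a RefSeq gene, and Inadl is now named Patj there.

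Tight junctions seal the space between neighboring epithelial or endothelial cells. Claudins are the membrane proteins that form the strands and set which ions may pass between cells, some as barriers and others as channels. Occludin and the other MARVEL proteins share the strands, the zonula occludens proteins and cingulins tie them to the actin cytoskeleton, and the junctional adhesion molecules (JAMs) and the polarity complexes lay out the border between the apical and the lateral membrane. In the urothelium, the lining of ureter and bladder, tight junctions connect the superficial cells that face the urine and are part of the barrier against it.

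The study asked how the urothelium develops without PPARG, a nuclear receptor for fatty acid ligands. The mutant group, Pparg-cKO, had the genotype Pax2-cre/+; Pparg(fl/fl), in which Cre from the Pax2-cre transgene removes exons 2 and 3 of Pparg in the nephric duct and the tissues that form from it, the ureteric epithelium and the collecting ducts. The control group had the genotype Pparg(fl/?), so it carried a floxed allele without stating the second, and the methods describe littermates without Cre. All embryos were E18.5, of the outbred NMRI strain, and the labels name no agent. RNA came from pools of ureters sorted by sex. Of the 2 arrays, the one for replicate 1 set a female Pparg-cKO pool against a female control pool, and the one for replicate 2 did the same with male pools and with the dyes exchanged. There were thus 4 pools and 2 ratios, and sex, dye orientation and array cannot be told apart. Mesenchyme, smooth muscle and vessels of the ureter were in each pool and kept Pparg, and fewer cells of a type cannot be told apart from less RNA per cell.

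The labels conflict on direction. By the dyes that they name, the control RNA was red on array 1 and green on array 2. The deposited ratio table, whose columns are titled Pparg-cKO vs control, is turned against these dyes. Its log ratios correlated with red over green at 0.905 on array 1 and at -0.932 on array 2. The direction of the deposited table was used here. It is also the direction of the text and the tissue sections of the study, those hybridized for the Pparg transcript at this stage included, and is called likely. If the dye labels are right, each "higher" below becomes "lower" and the reverse, and sizes and p-values stay as they are. In the direction used, the probe for Pparg itself read 12357 in the female pool called Pparg-cKO and 6113 in its control, and 12930 against 6688 in the males. This probe starts at base 1562 of its transcript, toward the 3′ end, and is no check of the loss of exons 2 and 3. Krt20, a keratin of superficial cells, was lower in Pparg-cKO with a log2 ratio of -3.15 in females and -3.03 in males.

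Signals below are the scanner software's processed signals in arbitrary units, which can be compared between pools for 1 probe but not between probes. They were not scaled between the arrays. The summed signal of a marker list adds all its genes on the array, undetected ones included, so the brightest probes weigh most. A log2 ratio is Pparg-cKO over control after background correction and loess, so 1 unit is a doubling. SD is the spread between both arrays (n = 2), and folds are taken from the mean log2 ratio. Because a constant of 50 was added to each intensity before the log, these ratios are smaller than those of the raw signals for dim genes. A gene passed the fold rule if it differed at least 1.5-fold the same way on both arrays and its brighter channel reached 100 on each. Adjusted p-values are from limma over all 22499 genes detected in at least 1 channel on both arrays.

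Of the 51 genes, 41 were detected by this criterion and 27 also reached the brightness limit, 10 claudins and 17 others. The 10 that were not detected were Cldn16, Cldn18, Cldn24 and 7 of the 9 Cldn34 genes, whose signals did not exceed 3.29 in any pool. In all 4 pools, 35 members stood well above background. The plot of pool signals gives 26 of the 27 brighter members.

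**Figure D1:**
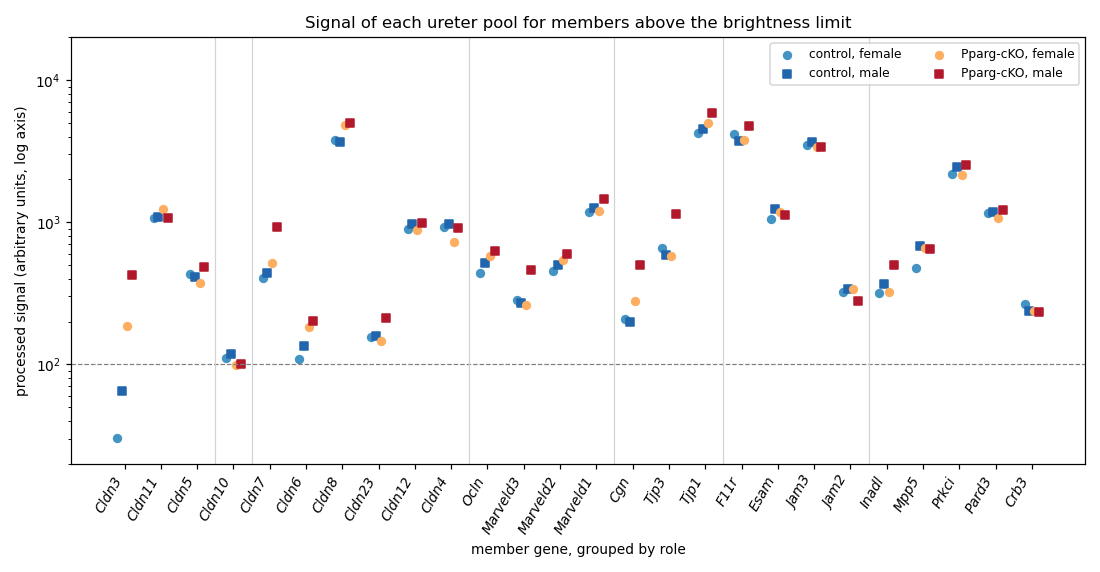
Processed signal (log axis, arbitrary units) of the 4 ureter pools for 26 members above the brightness limit, which is the dashed line at 100. Blue points are control pools, orange points the female and red points the male Pparg-cKO pool, with circles for females and squares for males. The 4 pools of Cldn3 are widely parted by genotype, from 30.5 in the female control pool to 425 in the male Pparg-cKO pool, and those of most others lie close together. Heights of different genes are not comparable.

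A single member changed by both criteria. Cldn3, a barrier-forming claudin of many epithelia, rose 4.74-fold in Pparg-cKO ureters. It read 186 in the female Pparg-cKO pool and 30.5 in the female control pool, and 425 in the male Pparg-cKO pool and 65.0 in the male control pool. All 4 pools were well above background, so the control value is a measured level and not a floor. The female array gave a log2 ratio of 2.09 and the male array 2.40, averaging 2.24 ± 0.22 (SD, n = 2), and limma gave an adjusted p of 0.00801 and a 95% interval of 3.80- to 5.91-fold. Each call was lost under 1 alternative. Limma on the deposited ratio table gave Cldn3 an adjusted p of 0.533 at a log2 ratio of 2.66 and called 0 genes of the whole array, with 2101 at an unadjusted p under 0.05, and a brightness limit of 200 left Cldn3 out of the fold rule. The raw processed signals, without the added constant, differed 6.09-fold in females and 6.54-fold in males. The 4 spots of the probe ranged from 2.00 to 2.26 in females and from 2.24 to 2.56 in males. Cldn3 stood at place 14 of 22499 genes when ordered from the highest mean log2 ratio. Its probe, at chr5:135463284-135463342 of mm9, is the only 1 for the gene.

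Against this single call, 258 of the 14015 genes above the brightness limit passed the fold rule (1.84%), and 1 of 27 members did. That member, Cldn3, reached the brightness limit only through its Pparg-cKO pools, as both control pools read below 100, so its place among the 27 depended on the difference itself. In limma, 167 of 22499 genes were called (0.742%), and 1 of 41 members was. At an unadjusted p under 0.05 the members were 10 of 41, which is 24.4%, beside 8.44% of all genes. Of these 10, 8 were higher in Pparg-cKO (Cldn3, Cldn6, Cldn7, Cldn8, Cgn, Ocln, Tjp1 and Marveld2) and 2 lower (Cldn2 and Cldn34c1). Except for Cldn3, none of the 10 passed the adjustment. Cldn2 was well above background in its control pools only, so its place among the 41 depended on the difference itself.

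Cldn4 is the neighbor of Cldn3. The probes lie 41.1 kb apart on mouse chromosome 5, with no other RefSeq gene between them, and both claudins are found in urothelium and collecting duct. Cldn4 met neither criterion. It read 728 in Pparg-cKO and 918 in control females, and 914 and 965 in males. The female array gave a log2 ratio of -0.25 and the male array -0.09, averaging -0.17 ± 0.12 (SD, n = 2; adjusted p = 0.780). The 95% interval of the ratio ran from 0.732 to 1.08 times the control and did not meet that of Cldn3. A second, slightly dimmer Cldn4 probe gave -0.65 in females and 0.23 in males, so its arrays opposed each other, and its mean of -0.21 was close to that of the first probe.

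The promoters of both genes are shown because Cldn3 met both criteria and its neighbor neither, in ureters whose epithelium was made to lose a DNA-binding receptor. They are RefSeq's sequences on GRCm38.p6, from 250 bases before to 50 bases after the transcription start. PPARG binds DNA together with a retinoid X receptor, on direct repeats of the hexamer AGGTCA with a spacer base. Hexamers on either strand are in capitals. Cldn3 lies on the plus strand at chr5:134985964-134986263 and Cldn4 on the minus strand at chr5:134946885-134947184, and each is written 5′ to 3′ along its own gene.
Cldn3: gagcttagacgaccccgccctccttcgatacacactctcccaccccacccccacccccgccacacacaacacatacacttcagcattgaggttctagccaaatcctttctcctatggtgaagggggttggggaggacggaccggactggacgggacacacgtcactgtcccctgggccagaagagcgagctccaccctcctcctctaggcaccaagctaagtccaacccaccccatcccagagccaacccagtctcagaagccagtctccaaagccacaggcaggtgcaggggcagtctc
Cldn4: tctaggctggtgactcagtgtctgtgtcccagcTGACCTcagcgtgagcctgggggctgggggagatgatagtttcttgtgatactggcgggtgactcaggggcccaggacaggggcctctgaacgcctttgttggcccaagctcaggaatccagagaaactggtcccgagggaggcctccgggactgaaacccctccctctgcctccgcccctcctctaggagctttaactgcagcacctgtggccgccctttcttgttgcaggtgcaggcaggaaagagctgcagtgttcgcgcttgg
The Cldn3 window held no AGGTCA on either strand. The Cldn4 window held 1, on the opposite strand, starting 217 bases before the start site. Of 32851 promoters of this length, 16.3% held at least 1 such hexamer. Neither window held the full repeat AGGTCANAGGTCA, which 0.0396% of all promoters did. These are matches of letters in short windows, which say nothing of binding. G and C made up 60.7% of the Cldn3 and 61.0% of the Cldn4 window, beside a median of 52.7% over all promoters.

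**Figure D2:**
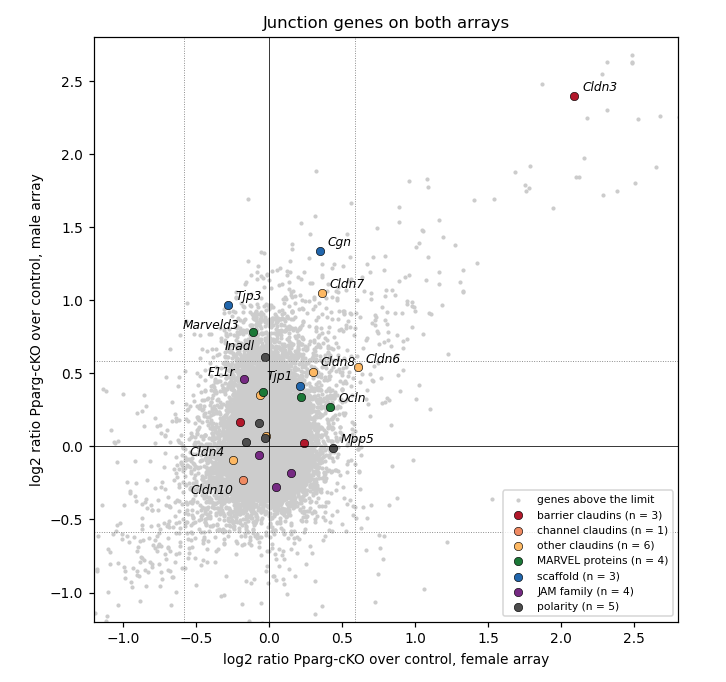
Log2 ratio of Pparg-cKO over control on the female (x) and the male array (y) for 26 members above the brightness limit, colored by role, over the other such genes in grey, of which those beyond the axes are not drawn. Dotted lines mark 1.5-fold. Cldn3, at 2.09 and 2.40, is the only member past the lines on both arrays, and Cgn, Cldn7, Tjp3, Marveld3 and Inadl lie above the line on the male array only.

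Among the other claudins of epithelia, Cldn7, Cldn6 and Cldn8 were each higher on both arrays without passing a test. Cldn7, which is found along the lateral membrane as well as in the junction, read 516 in Pparg-cKO and 405 in control females, and 931 and 436 in males. Its log2 ratios were 0.36 in females and 1.05 in males, averaging 0.71 ± 0.48 (SD, n = 2), which is 1.63-fold, and the adjusted p was 0.350. The distance between the arrays was almost as large as the mean itself. A second Cldn7 probe was above background in the male Pparg-cKO pool only, at 4.44, and so was not counted as detected.

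Cldn6, a claudin of embryonic epithelia, came closest to the limit. It read 184 in Pparg-cKO and 109 in control females, and 201 and 134 in males. The arrays were nearly alike, with log2 ratios of 0.61 and 0.54. The mean was 0.58 ± 0.05 (SD, n = 2), or 1.49-fold with a 95% interval of 1.24- to 1.80-fold, and the adjusted p was 0.153. It was 1.53-fold higher in females and 1.45-fold higher in males, just past and just short of the fold limit. Its neighbor Cldn9, whose probe lies 1.14 kb away on chromosome 17, was dim, with signals of 81.6 to 99.2 and a mean log2 ratio of 0.15.

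Cldn8, which pairs with Cldn4 in the collecting duct, had the brightest probe among the claudins. The pools read 4800 and 4991 in Pparg-cKO and 3806 and 3660 in control. The log2 ratio was 0.30 and 0.51, averaging 0.41 ± 0.15 (SD, n = 2), or 1.33-fold, and the adjusted p was 0.382. Its neighbor on chromosome 16, Cldn17, read 14.5 to 21.4 and had a mean log2 ratio of 0.01.

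Cldn12, a claudin without the C-terminal motif by which others bind the scaffold, read 878 and 982 in Pparg-cKO and 897 and 971 in control, with a mean log2 ratio of 0.02 ± 0.07 (SD, n = 2), a 95% interval of 0.842 to 1.22 times the control and an adjusted p of 0.989. Cldn23, a lesser-known member, read 147 and 212 in Pparg-cKO and 155 and 159 in control, with log2 ratios of -0.06 and 0.35 that pointed apart.

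None of the other barrier claudins met a criterion. Cldn11, known from myelin and from Sertoli cells, read 1230 and 1072 in Pparg-cKO and 1077 and 1085 in control. Its mean log2 ratio was 0.13 ± 0.16 (SD, n = 2), with an adjusted p of 0.858. Cldn5, the claudin of blood vessels, read 375 and 482 against 435 and 409, and its log2 ratios of -0.20 and 0.17 nearly cancelled. Cldn1, the claudin of the epidermal barrier, read 71.6 to 119 over the 4 pools with a mean of 0.05. Cldn14 and Cldn19 were detected at signals of no more than 11.7, with means of 0.02 and -0.08, and Cldn18, the claudin of stomach and lung, was not detected. Markers of nerve and of Schwann cells, which are known to make Cldn19, were detected in 10 of 10, with medians of -0.06 in females and 0.12 in males and a summed signal of 6640 to 6905 in Pparg-cKO and 5865 to 6418 in control. Their part in the values of these claudins was not tested.

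None of the 4 channel-forming claudins met a criterion. Cldn10 read 98.3 and 100 in Pparg-cKO and 110 and 118 in control, with a mean log2 ratio of -0.21 ± 0.04 (SD, n = 2), 1.15-fold lower, and an adjusted p of 0.700. Cldn15 had a mean of -0.01 at signals of 70.7 to 88.3. Cldn2, the cation and water channel of the proximal tubule, read 5.30 and 2.13 in Pparg-cKO, not well above background, and 11.4 in both control pools, where it was above background. Its mean was 1.36-fold lower in Pparg-cKO, the dim side being taken at the higher of its own normalized signal and the lowest signal called above background. This figure leaves out the spread between arrays. The 95% interval of Cldn2 from limma ran from 0.591 to 0.909 times the control, and its adjusted p was 0.361. The second Cldn2 probe was not above background in any pool. The 12 kidney tubule markers had a median log2 ratio of -0.31 over the 7 detected, and their summed signal was 207 to 268 in Pparg-cKO and 309 to 342 in control. Umod, Slc12a1, Slc12a3, Slc22a8 and Kap were not detected. The part of kidney tissue in the values of Cldn2 and Cldn10 was not tested.

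**Figure D3:**
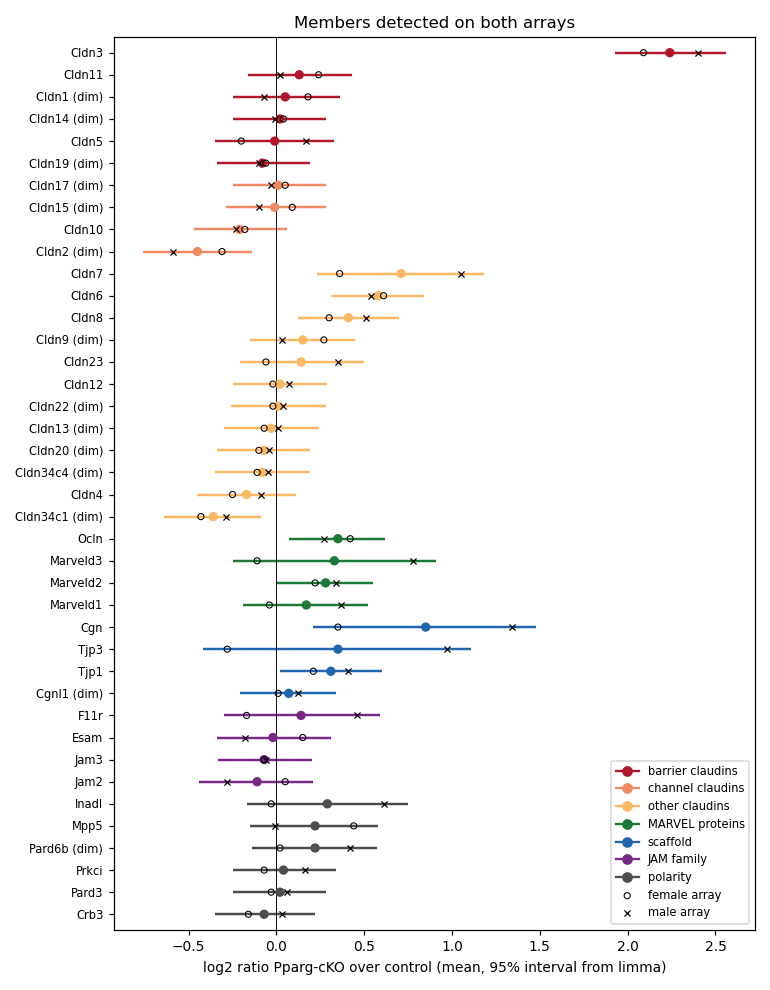
Mean log2 ratio of Pparg-cKO over control (filled points) with its 95% interval from limma (lines) for 40 detected members, grouped and colored by role. Open circles are the female array, crosses the male array, and "dim" marks members below the brightness limit. The interval of Cldn3, from 1.93 to 2.56, lies apart from all others, and the intervals of most members include 0.

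The 4 MARVEL genes, whose proteins sit in the strands beside claudins, had a median log2 ratio of 0.31, beside 0.01 over all genes tested, and none passed the fold rule or limma. Ocln, occludin, read 582 and 626 in Pparg-cKO and 439 and 517 in control. The log2 ratio was 0.42 and 0.27, averaging 0.35 ± 0.11 (SD, n = 2), 1.27-fold, and the adjusted p was 0.459. A second occludin probe gave 0.49 and 0.45. Marveld2, tricellulin, which closes the corners where 3 cells meet, read 541 and 598 against 454 and 500, and had a mean of 0.28. Marveld3 differed between the arrays. It read 261 in Pparg-cKO and 283 in control females but 462 and 271 in males, and a second probe showed the same split with -0.12 and 0.50. Marveld1, whose probe was the brightest of the group, read 1193 and 1461 in Pparg-cKO and 1180 and 1249 in control, with a mean log2 ratio of 0.17 ± 0.29 (SD, n = 2; adjusted p = 0.841). Its second probe had a mean of -0.49, so the direction of Marveld1 depended on the probe.

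Cingulin and the zonula occludens proteins connect the strands to actin and myosin. None of their 5 genes met a criterion. Cgn, cingulin, had the highest mean ratio of the members after Cldn3 and read 281 in Pparg-cKO and 207 in control females, and 497 and 198 in males. The female array gave a log2 ratio of 0.35 and the male array 1.34, averaging 0.85 ± 0.70 (SD, n = 2), or 1.80-fold with a 95% interval of 1.16 to 2.79, and the adjusted p was 0.412. Its paralog Cgnl1 was dim, at 7.41 to 14.1.

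Tjp1, the zonula occludens protein ZO-1, read 4952 and 5881 in Pparg-cKO and 4267 and 4533 in control. The mean log2 ratio was 0.31 ± 0.14 (SD, n = 2), 1.24-fold, and the adjusted p was 0.550. Tjp3, ZO-3, went in opposite directions. It read 578 in Pparg-cKO and 657 in control females, and 1140 and 585 in males, giving log2 ratios of -0.28 and 0.97, a mean of 0.35 ± 0.88 (SD, n = 2; adjusted p = 0.855). Because the dyes were exchanged, green was the stronger channel for Tjp3 on both arrays. By the log ratios this holds for all 11 members, Tjp3 included, that were negative in females and positive in males. Tjp3 was the only 1 of 27 members past 1.2-fold in opposite directions, as were 1.77% of all genes above the brightness limit. In females it was 1.21-fold lower by the log2 ratio but 1.14-fold lower by the processed signals, so passing this limit depended on the processing.

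The 4 genes of the JAM family had a median of -0.04, and none met a criterion. F11r, JAM-A of epithelia, had the brightest probe and read 3785 and 4780 in Pparg-cKO and 4181 and 3717 in control. Its arrays pointed apart, with -0.17 and 0.46, a mean of 0.14 ± 0.44 (SD, n = 2; adjusted p = 0.923). Jam3 had log2 ratios of -0.07 and -0.06. Esam and Jam2, adhesion molecules of endothelium, had means of -0.02 and -0.11, though the other 2 Jam2 probes had means of 0.15 and 0.13. Endothelial markers were all detected, 13 of 13, with medians of 0.02 in females and 0.43 in males, and their summed signal was 11439 to 13806 in Pparg-cKO and 11486 to 11621 in control. Their part in the values of Cldn5, Esam and Jam2 was not tested.

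None of the 6 polarity genes met a criterion. Pard3, Pard6b and Prkci encode the PAR complex, and Crb3, Mpp5 and Inadl the Crumbs complex. Prkci, atypical protein kinase C, had the brightest probe and read 2163 and 2531 in Pparg-cKO and 2178 and 2461 in control. Its mean log2 ratio was 0.04 ± 0.16 (SD, n = 2), with an interval of 0.838 to 1.26 times the control and an adjusted p of 0.978. Pard3 and Crb3 had means of 0.02 and -0.07, though the 4 Pard3 probes ranged from -0.31 to 0.33. Inadl read 321 and 315 in the female pools and 496 and 368 in the males, a log2 ratio of -0.03 against 0.61. Its 6 probes, spread along the gene, had means from 0.01 to 0.29. Mpp5 went the other way, with 0.44 in females and -0.01 in males. Pard6b was dim, at 6.30 to 14.9.

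Over all 41 detected members the median log2 ratio was 0.05, beside 0.01 over all genes tested. The members above the brightness limit had a median of 0.17, with -0.02 in females and 0.34 in males, where all genes above the limit had -0.01 and 0.02. Higher on both arrays were 10 of the 27 members (37.0%, beside 26.9% of all such genes), lower on both were 3 (11.1%, beside 25.9%), and 14 had arrays of opposite sign (51.9%, beside 47.2%). In 11 of these 14 the male array was the positive one, which is 40.7% of the 27 members beside 25.9% of all such genes. The male array gave the higher ratio for 20 of the 27 members and for 7808 of all 14015 genes above the limit. The spread between arrays was larger among the members, with a median SD of 0.22, than over all such genes, with 0.14.

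The male array held more of the differences. Taken alone, it put 7 of 27 members (25.9%) at least 1.5-fold higher in Pparg-cKO, among them Cldn3, Cgn, Cldn7, Tjp3, Marveld3 and Inadl, and 6.44% of all genes above the limit. The female array alone put 2 members there (7.41%), Cldn3 and Cldn6, and 1.19% of all such genes. Of 12 marker lists, 8 had a higher median on the male than on the female array and 4 a lower one. The lower ones were liver (-0.05 in females and -0.92 in males), mesothelium (0.54 and -0.13), skeletal muscle (-0.15 and -0.37) and kidney tubule (-0.17 and -0.22). The 15 epithelial markers, all detected, had a median of -0.10 in females and 0.37 in males, and their summed signal was 49225 in Pparg-cKO and 56949 in control females but 65465 and 49992 in males. The 6 basal cell markers had 0.16 and 1.00. Their part in the values of the junction genes was not tested.

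**Figure D4:**
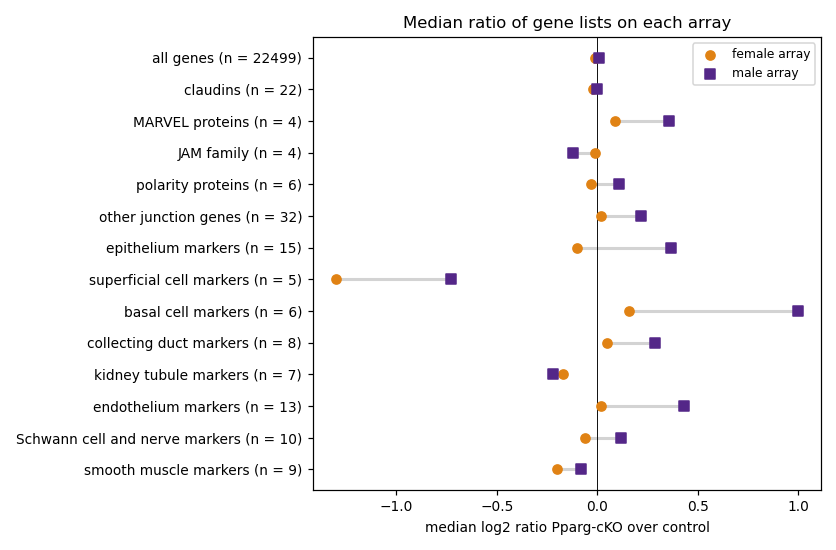
Median log2 ratio of Pparg-cKO over control on the female (circles) and the male array (squares) for claudins and other role groups of the members, for other junction genes and for cell type markers, each with its number of detected genes. The MARVEL genes had 0.09 and 0.36, and the epithelial markers lie apart the same way, at -0.10 and 0.37.

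Other markers stand beside the rise of Cldn3. The 5 superficial cell markers were lower on both arrays, with a median of -1.01, and Krt20, Upk1a and Upk1b passed the fold rule. Of the 6 basal cell markers, 3 were higher on both arrays, 1 was lower on both and 2 opposed, with means from -0.48 to 1.18. Krt14 and Krt15 rose 2.01- and 2.26-fold, with adjusted p-values of 0.0434 and 0.0232. Of the 15 epithelial markers, 6 were higher on both arrays, 3 lower on both and 6 opposed, with means from -0.79 to 1.00 and a median of 0.12. Krt19, an epithelial keratin and the highest of them, was 2.00-fold higher and passed the fold rule but not limma, with an adjusted p of 0.128. Of the 10 collecting duct markers, 8 were detected, 5 higher on both arrays, 2 lower on both and 1 opposed, with a lowest mean of -0.21 and a median of 0.18. Among them Fxyd4, a regulator of the sodium pump, rose 5.22-fold with an adjusted p of 0.00649. The summed signal of this list was 874 to 993 in Pparg-cKO and 389 to 406 in control, and Calb1 and Atp6v1b1 were not detected. Of the 4 mesothelial markers, 3 were detected. Msln rose 5.87-fold, 1 was lower on both arrays and 1 opposed, with a median of 0.20 and a lowest mean of -0.09, and Lrrn4 was not detected. Liver and skeletal muscle markers had medians of -0.59 and -0.21. The part of these cells in the value of Cldn3 was not tested.

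Other genes of the junction pathway, 34 on the array and 32 of them detected, included tricellular proteins, further polarity genes and regulators of claudins. Their median was 0.13, with 0.02 in females and 0.22 in males, 13 were higher on both arrays, 4 lower on both and 15 opposed. Igsf5, an immunoglobulin-like protein of the junction also called JAM4, was the only 1 past the fold rule. It was 1.76-fold lower in Pparg-cKO, with log2 ratios of -0.88 and -0.76 and an adjusted p of 0.0640. None of the list was called in limma.

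**Figure D5:**
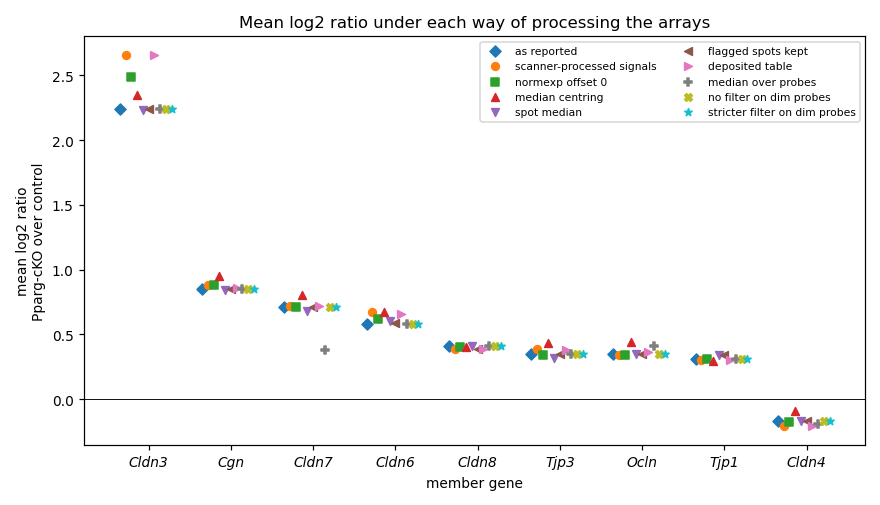
Mean log2 ratio of Pparg-cKO over control for 9 members under the processing used and 9 alternatives, 1 symbol each. Cldn3 stays between 2.23 and 2.66, above every other gene, and Cldn4 stays below 0 throughout, between -0.21 and -0.09. The alternative filters on dim probes leave each ratio unchanged. The low symbol of Cldn7, at 0.38, averages in its second probe, which was not above background on the female array.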

How the data were processed

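RNA of 4 ureter pools was hybridized to 2 two-color Agilent arrays, and the scanner files were made by the authors with Agilent Feature Extraction 10.7.3.1. Per the file headers, the deposited spot files hold mean, background and processed intensity per dye, with flags, and the authors' ratio table holds a signed fold score per probe (its scaling is not given in the sources used here). It set the direction of each array and served as an alternative. The members and gene lists were chosen with earlier results of these data known.

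Mean intensity was background corrected by normexp (offset 50) and loess normalized within each array in limma 3.58.1 (R 4.3.3). Control spots got weight 0, and outlier-flagged spots (2.87% and 3.24%) were dropped. No spot was saturated. The spots of a probe were averaged, 4 for most, and the brightest probe stood for a gene. An intercept was fitted over 22499 genes with eBayes, leaving 1 residual and 3.96 prior degrees of freedom, with Benjamini-Hochberg adjustment at 0.05. The procedure was tested on simulated data. Every member could be named, but 1 is counted and not reported here. Full values were given for members past either criterion, at least 1.5-fold in the mean, past 1.2-fold in opposite directions, or brightest in their group. The number of arrays limits the precision, and p-values cover only the spread between these 2 pairs of pools. Probe positions are those of the files on mm9, and whether probes lie in coding sequence was not analysed here.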

Additional observations from a re-analysis of the deposited data

Results flagged for a closer look

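Tjp3 went in opposite directions in the pools of the 2 sexes, 1.2-fold or more on each array. The log2 ratio of Pparg-cKO over control was -0.28 in females and 0.97 in males, so that the male value exceeded the female by 1.24. By the scanner-processed signals Tjp3 was 1.14-fold lower in females, short of 1.2-fold. With 1 array per sex the difference was not tested, and sex, dye and array cannot be told apart.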

How the results depend on the processing

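Cldn3 kept its direction under all 9 alternatives, with a mean log2 ratio of 2.23 to 2.66, and an adjusted p under 0.05 in all but the deposited table. Several alternatives could not move its ratio. The filters on dim probes leave every ratio unchanged, and Cldn3 has 1 probe with all 4 spots kept on each array. The sign of each array was itself set from the deposited table. In that table Cldn3 was past the fold rule, at 2.66, with an adjusted p of 0.533, and limma called 0 members and 0 genes of the whole array (2101 genes at an unadjusted p under 0.05). The fold rule passed 1 member as reported (258 genes of the whole array), 2 with scanner-processed signals, which added Cldn6 (293 genes), and 0 with the stricter limit of 200 (198 genes), since Cldn3 read 186 in the female pool. With the female array alone 2 members and 446 genes passed, and with the male array alone 7 members and 1269 genes. Limma called 2 members with an offset of 0, which added Cldn2, and 502 genes of the whole array in place of 167. Cldn2 counted as detected through its control pools only, and its Pparg-cKO signals were not well above background. The median log2 ratio of the members, 0.05 as reported, was 0.131 under the stricter filter and -0.019 to 0.062 with 1 array left out. Of the other members with brightness above the limit, Cldn5, Cldn12, Crb3, Esam, Jam2, Marveld1 and Pard3 changed sign under at least 1 of the 9 alternatives, from reported means of -0.11 to 0.17. The fit was already paired, because each array sets 1 mutant pool against 1 control pool of the same sex, and the samples form 1 group. Signal limits what can be said of the 14 dim and 10 undetected members.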
